A study of Homo sapiens with 4 samples.

Results

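The 10 genes described here encode transcription factors of the luminal epithelial lineage of the prostate and of related glandular epithelia: FOXA1, GATA2, GATA3, SPDEF, GRHL1, GRHL2, EHF, ELF3, TFAP2A and CREB3L4. They are a list of names, taken for their known role in epithelium by a rule that uses no measured value, although earlier results of these data were known when it was drawn up. Each matched 1 of the 20332 genes in the deposited table. RNA-seq was performed on LN-35 cells (2 libraries) and on LNCaP cells (2 libraries). LNCaP is a human prostate cancer cell line that is labelled WT and depends on androgen. LN-35 is an LNCaP subline that the study adapted to charcoal-stripped serum and selected under stepwise rising doses of enzalutamide, a drug that blocks androgen signaling, and the labels describe it as resistance cells treated with enzalutamide. The labels name no transgene or deletion in either line and give the same serum-supplemented medium for both, while the sources used here do not give whether LN-35 is 1 clone or whether the drug was present at harvest. The comparison asked which of these lineage factors differ between the resistant subline and its parent.

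Together these factors help to keep luminal cells epithelial. FOXA1 is a pioneer factor that opens chromatin for nuclear receptors and works together with GATA factors at prostate enhancers. GATA2 is the GATA factor that prostate luminal cells mainly use, and GATA3 is best known as the luminal GATA factor of breast. SPDEF, EHF and ELF3 belong to the epithelial branch of the ETS family. GRHL1 and GRHL2 are grainyhead-like factors that drive genes of cell-cell junctions. TFAP2A is an AP-2 factor of ectoderm and neural crest, and CREB3L4 is a membrane-bound factor of the CREB3 family that is abundant in prostate.

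The libraries held 12225173 and 12892059 counts in LN-35 and 15333722 and 13598458 counts in LNCaP. Levels are given in CPM (counts scaled to a library of 1e6 counts by TMM). Each log2 fold change sets LN-35 over LNCaP and comes from the quasi-likelihood test of edgeR, whose p-values were adjusted by Benjamini and Hochberg's method over all 13744 tested genes. A gene was called at an adjusted p under 0.05. The pairwise correlation of log2 CPM across genes was at least 0.9881 between the libraries of a line and at most 0.7423 between the lines, as a description. Of all tested genes 71.8% were called, 36.4% as higher and 35.5% as lower in LN-35, so a second rule asked for a difference beyond 2-fold (edgeR's glmTreat), which 24.9% passed, 14.7% as higher and 10.3% as lower. That LN-35 derives from LNCaP rests on the labels and the study's methods and was not tested here. Several genes that mark other prostate cancer lines were higher in LN-35, with values given at the end. The sources used here do not give whether the libraries of a line came from separate cultures, so each p-value reflects only the spread among these libraries, and that spread may be technical.

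All 10 factors had enough counts to be tested. GATA3, TFAP2A and ELF3 were higher in LN-35, GATA2, EHF, FOXA1, CREB3L4 and GRHL2 were lower, and SPDEF and GRHL1 did not pass the test. The 8 calls are 80% of the factors, beside the 71.8% background, with 3 higher (background 36.4%) and 5 lower (background 35.5%). Beyond 2-fold, GATA3 and TFAP2A were higher and GATA2 and EHF lower, 4 of 10 beside a background of 24.9%. Of these, GATA3 passed the filter on low counts only through its LN-35 libraries, where it is high, so it could enter the test only as a higher gene. The median log2 fold change of the 10 was -0.16, beside -0.0069 over all tested genes, and the median of their absolute changes was 0.50, beside 0.61. Summed over the 10 factors, LN-35 libraries held 864 and 862 CPM, against 1591 and 1590 CPM in LNCaP libraries. Most of that sum was EHF and FOXA1. In these bulk libraries, a lower share of cells that express a gene cannot be told apart from less RNA per cell.

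**Figure D1:**
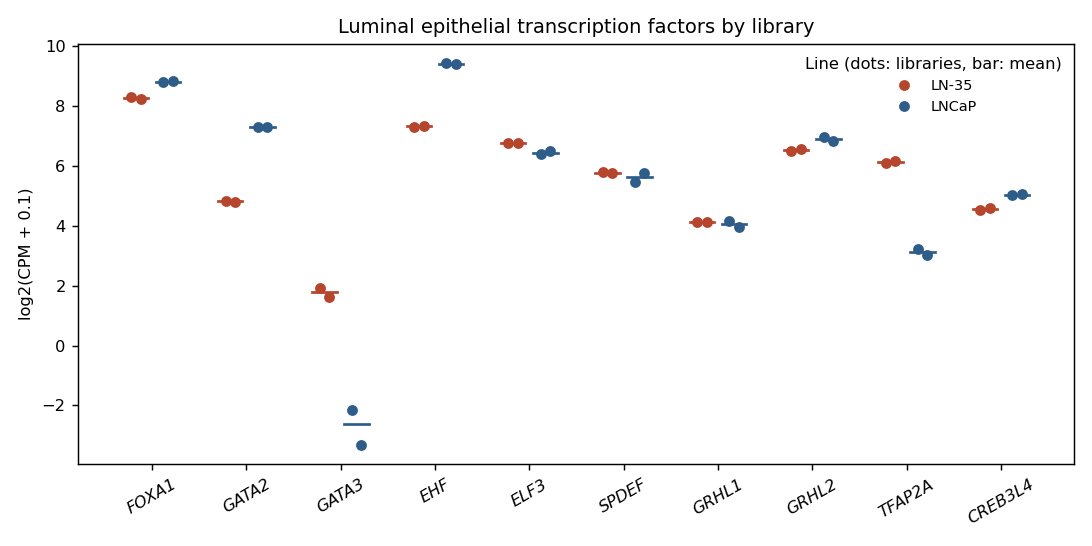
Level of each of the 10 factors in each library, as log2(CPM + 0.1), with the mean of each line as a bar (2 libraries per line). The libraries of a line lie close together, except those of GATA3 in LNCaP (0.127 and 0 CPM). The widest gaps between the lines are those of GATA3, TFAP2A, GATA2 and EHF.

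The pioneer factor FOXA1 (ENSG00000129514, hg38 chromosome 14, 37589984 to 37596059, minus strand) was moderately lower. Its levels were 314 and 302 CPM in LN-35, against 441 and 452 CPM in LNCaP. Both LN-35 libraries lay below both LNCaP libraries. The mean fell to 308 ± 8.37 CPM in LN-35, against 446 ± 7.36 CPM in LNCaP (SD, n = 2 each), which is 1.45-fold lower (log2 fold change -0.54, SE 0.07, 95% interval -0.68 to -0.40, edgeR adjusted p = 2.24e-07). FOXA1 did not pass the rule beyond 2-fold. TTC6, an overlapping gene on the opposite strand, shares 16 bases with its exons, 0.402% of them, and was also lower (66.7 ± 1.63 CPM in LN-35 and 193 ± 2.04 CPM in LNCaP, SD, n = 2 each, log2 fold change -1.53, edgeR adjusted p = 7.07e-15). No use of strand is stated for the counts, so reads over those shared bases cannot be assigned, and the part of TTC6 in the FOXA1 value was not tested.

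GATA2 and GATA3 moved in opposite directions. GATA2 (ENSG00000179348, chromosome 3, 128479427 to 128493185, minus strand) had 28.2 and 27.8 CPM in LN-35, against 155 and 156 CPM in LNCaP. It was 5.55-fold lower (log2 fold change -2.47, SE 0.09, 95% interval -2.65 to -2.30, edgeR adjusted p = 9.83e-18), and beyond 2-fold (adjusted p = 2.16e-14). GATA3 (ENSG00000107485, chromosome 10, 8045378 to 8075203, plus strand) had 44 and 37 counts in LN-35, against 2 and 0 counts in LNCaP. In CPM these were 3.67 and 2.98 in LN-35, against 0.127 and 0 in LNCaP, so GATA3 was a rare transcript in LN-35 and at the limit of detection in LNCaP. The ratio of normalized counts was 49.2, with a 95% counting interval of 13.2 to 414 that covers counting error only. GATA3 passed the test (edgeR adjusted p = 6.50e-07) and the rule beyond 2-fold (adjusted p = 9.51e-06). Its fitted log2 fold change of 5.45 became 4.61 without LNCaP replicate 2 and 8.41 without LNCaP replicate 1, where no LNCaP count is left. In absolute level the gain of GATA3 was small beside the loss of GATA2, at 3.32 ± 0.486 CPM in LN-35 and 0.0635 ± 0.0898 CPM in LNCaP for GATA3 and 28 ± 0.335 CPM in LN-35 and 155 ± 0.66 CPM in LNCaP for GATA2 (SD, n = 2 each).

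Of the epithelial ETS factors, EHF (ENSG00000135373, chromosome 11, 34621093 to 34661057, plus strand) changed most. It had 157 and 161 CPM in LN-35, against 685 and 669 CPM in LNCaP. The fall was 4.26-fold (log2 fold change -2.09, SE 0.07, 95% interval -2.24 to -1.94, edgeR adjusted p = 7.86e-18) and beyond 2-fold (adjusted p = 1.48e-13). EHF remained an abundant transcript in LN-35, at 159 ± 2.96 CPM (SD, n = 2). ELF3 (ENSG00000163435, chromosome 1, 202007945 to 202017188, plus strand), a related factor of differentiating epithelia, went the other way. It had 109 and 109 CPM in LN-35, against 83.8 and 89 CPM in LNCaP, and was 1.26-fold higher (log2 fold change 0.34, SE 0.08, edgeR adjusted p = 4.55e-04). ELF3 shares 9.23% of its exon bases with the antisense gene ELF3-AS1, which was not measured on its own here. SPDEF (ENSG00000124664, chromosome 6, 34537802 to 34556333, minus strand), a prostate-derived ETS factor of secretory cells, had 55.1 and 53.7 CPM in LN-35, against 44 and 54 CPM in LNCaP. The lines overlapped, since LNCaP replicate 2 lay between the LN-35 libraries, and the log2 fold change of 0.15 (SE 0.10, 95% interval -0.06 to 0.36, edgeR adjusted p = 0.179) missed the threshold. Without LNCaP replicate 2 it was 0.30 and passed (adjusted p = 0.0151).

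Of the grainyhead-like pair, GRHL2 was lower and GRHL1 did not pass the test. GRHL2 (ENSG00000083307, chromosome 8, 101492432 to 101669726, plus strand), which activates junction genes such as CDH1 and holds back the mesenchymal state, had 89 and 93.1 CPM in LN-35, against 123 and 114 CPM in LNCaP. All LN-35 values lay below the LNCaP values, and the fall was 1.3-fold (log2 fold change -0.38, SE 0.08, 95% interval -0.54 to -0.22, edgeR adjusted p = 1.26e-04). GRHL1 (ENSG00000134317, chromosome 2, 9951693 to 10002277, plus strand) had 17.1 and 17.2 CPM in LN-35, against 17.7 and 15.3 CPM in LNCaP. The lines overlapped. GRHL1 had a log2 fold change of 0.05 and a 95% interval of -0.25 to 0.36 (SE 0.15, edgeR adjusted p = 0.753), and the sign turned when libraries were scaled by their totals alone (-0.02) and without LNCaP replicate 2 (-0.05).

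TFAP2A (ENSG00000137203, chromosome 6, 10393186 to 10419659, minus strand) was higher beyond 2-fold. It had 68.1 and 71.9 CPM in LN-35, against 9.14 and 7.96 CPM in LNCaP. It was 8.16-fold higher (log2 fold change 3.03, SE 0.12, 95% interval 2.78 to 3.27, edgeR adjusted p = 1.19e-16, and adjusted p = 3.52e-14 beyond 2-fold). Antisense genes not measured on their own here share exon bases with it, TFAP2A-AS2 11.4% and TFAP2A-AS1 5.29% of them. CREB3L4 (ENSG00000143578, chromosome 1, 153967534 to 153974363, plus strand), which is released from the endoplasmic reticulum membrane by cleavage, had 23.1 and 24 CPM in LN-35, against 32.2 and 33 CPM in LNCaP, and was 1.38-fold lower (log2 fold change -0.47, SE 0.12, 95% interval -0.71 to -0.23, edgeR adjusted p = 0.00102). It shares 9.64% of its exon bases with SLC39A1 and 3.27% with JTB, both on the opposite strand. SLC39A1 was higher (145 ± 5.34 CPM in LN-35 and 104 ± 3.29 CPM in LNCaP, SD, n = 2 each, edgeR adjusted p = 4.07e-06) and JTB lower (153 ± 4.07 CPM in LN-35 and 198 ± 0.71 CPM in LNCaP, SD, n = 2 each, edgeR adjusted p = 4.62e-05), and their part in the CREB3L4 counts was not tested.

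Set against each other per length, as CPM per kb of exon, the factors stood in a different order in the lines. The length counts every exon base of a gene in the GENCODE annotation, whichever transcripts are used, so comparisons between genes depend on that choice. In LN-35 FOXA1 led with 77.3 CPM per kb, followed by EHF (36.2), SPDEF (28.4), ELF3 (15.2), GRHL2 (15), TFAP2A (8.46), CREB3L4 (8.1), GATA2 (6.28), GRHL1 (2.16) and GATA3 (0.967). The libraries of ELF3 and GRHL2, and those of TFAP2A and CREB3L4, overlapped, so neither of these neighbors differed beyond its spread. In LNCaP EHF led with 154 CPM per kb, followed by FOXA1 (112), GATA2 (34.9), SPDEF (25.6), GRHL2 (19.5), ELF3 (12), CREB3L4 (11.2), GRHL1 (2.07), TFAP2A (1.03) and GATA3 (0.0185), and no neighbors overlapped. GATA2 thus stood at place 8 in LN-35 and place 3 in LNCaP, and TFAP2A at place 6 in LN-35 and place 9 in LNCaP.

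Relatives of the 10 factors, which bind the same kinds of sites, were read from the same fit. Of 19 relatives 13 were tested, of which 9 were higher, 3 lower and 1 did not pass, with a median log2 fold change of 1.02, beside -0.0069 over all tested genes. The 12 calls are 92.3%, beside the 71.8% background. Among them FOXA3, GATA5, CREB3L1 and GRHL3 passed the filter on low counts only through the line where they are high. In the AP-2 family TFAP2C moved against TFAP2A. TFAP2C, the AP-2 factor of luminal breast and of germ cells, had 0.916 and 0.724 CPM in LN-35, against 20.2 and 21.1 CPM in LNCaP, 25-fold lower (log2 fold change -4.64, SE 0.25, edgeR adjusted p = 6.54e-14). ELF5, an ETS factor of secretory alveolar cells whose gene lies beside EHF at a distance of 107288 bases, had 13.2 and 12.9 CPM in LN-35, against 1.02 and 0.932 CPM in LNCaP (log2 fold change 3.73, SE 0.28, edgeR adjusted p = 2.51e-11). GATA6, a GATA factor of endoderm, had 12.9 and 14 CPM in LN-35, against 3.81 and 6.38 CPM in LNCaP (log2 fold change 1.41, SE 0.22, edgeR adjusted p = 6.45e-06). The broadly expressed ETS factors were also higher, by 0.45 (ELF1), 0.95 (ELF2) and 1.02 (ELF4) on the log2 scale. In the CREB3 family, CREB3L2, a factor of secretory cells, was higher (197 ± 3.83 CPM in LN-35 and 95.1 ± 2.53 CPM in LNCaP, SD, n = 2 each, edgeR adjusted p = 4.25e-12). CREB3 was lower (24.3 ± 0.765 CPM in LN-35 and 35.6 ± 1.11 CPM in LNCaP, SD, n = 2 each, edgeR adjusted p = 1.47e-04).

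The other 5 tested relatives were under 5 CPM in both lines, outside the rule for named genes, and are named after their values were seen. FOXA3 had 16 and 16 counts in LN-35, against 0 and 1 in LNCaP, 38.9 times as many after scaling (counting interval 6.5 to 1584). CREB3L1 had 53 and 50 counts in LN-35, against 1 and 2 in LNCaP, 41.7 times as many (counting interval 13.9 to 206). Both were called as higher, as was GATA5, with 15 and 22 counts in LN-35 and 4 and 1 in LNCaP, and these 3 passed the filter on low counts only through LN-35. The fitted log2 fold change of FOXA3 was 4.94, 4.01 without LNCaP replicate 1 and 7.14 without LNCaP replicate 2. That of GATA5 was 3.10, and 4.22 without LNCaP replicate 1, and that of CREB3L1 was 5.26, and 5.86 without LNCaP replicate 2. GRHL3, the grainyhead-like factor of surface epithelium, was lower, with 1 and 6 counts in LN-35 and 44 and 36 in LNCaP (log2 fold change -3.19, edgeR adjusted p = 7.16e-05). It passed the filter only through LNCaP, so it could enter the test only as a lower gene. The change of GRHL3 was -2.45 without LN-35 replicate 1 and -4.87 without LN-35 replicate 2. TFAP2E, with 2.83 and 3.7 CPM in LN-35 and 2.98 and 3.44 CPM in LNCaP, did not pass.

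**Figure D2:**
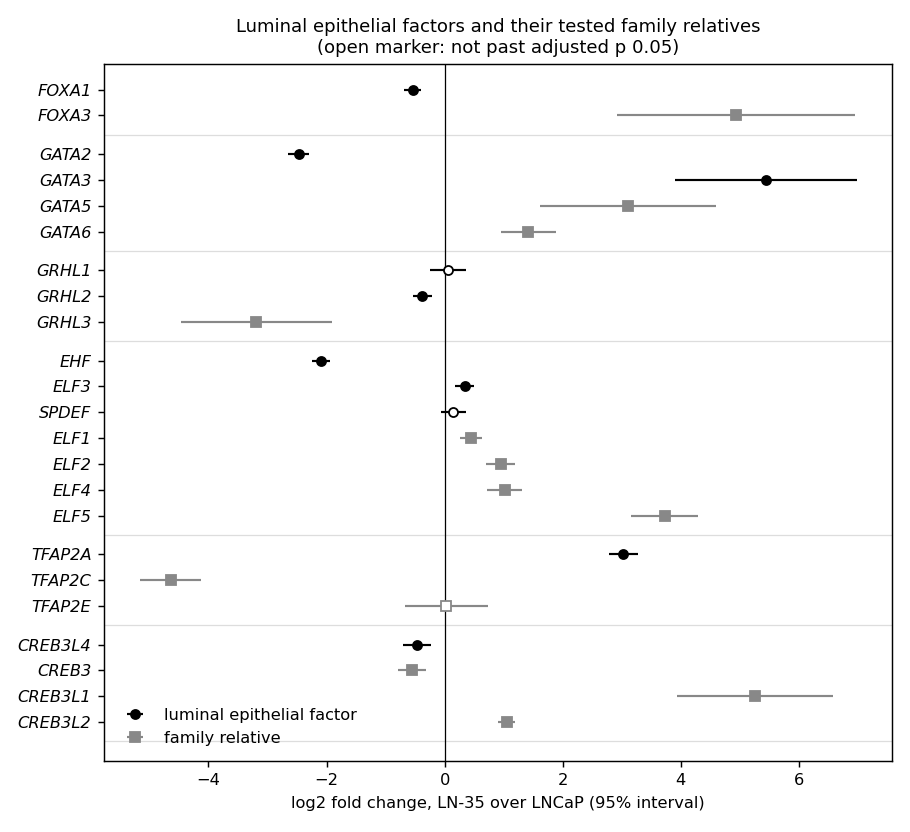
Log2 fold change of each of the 10 factors (black) and of its tested relatives (grey), LN-35 over LNCaP, with 95% intervals, grouped by family. In each family except the grainyhead-like genes, filled markers (called genes) lie on both sides of 0, and the intervals of FOXA3, GATA3 and GATA5 are the widest of the plot.

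Shares within a family, computed from CPM per kb, put these changes on 1 scale. TFAP2A made up 83.5% and 78.4% of the AP-2 sum in LN-35 libraries, against 12% and 10.1% in LNCaP libraries, and TFAP2C 3.09% and 2.18% in LN-35, against 73.3% and 73.6% in LNCaP. The AP-2 sum itself was 9.86 and 11.1 CPM per kb in LN-35 and 9.19 and 9.53 CPM per kb in LNCaP. It depends on the length given to each gene, which is 8274 bases for TFAP2A. Before division by length, TFAP2A had a mean of 70 CPM in LN-35 and TFAP2C of 20.7 CPM in LNCaP. In the GATA family the share of GATA2 was 56.8% and 54.6% in LN-35, against 96.7% and 95.5% in LNCaP. GATA6 held 29.3% and 31.1% in LN-35, against 2.69% and 4.42% in LNCaP, and GATA3 9.56% and 7.6% in LN-35, against 0.103% and 0% in LNCaP. The GATA sum was lower, at 11.2 and 11.4 CPM per kb in LN-35 and 35.9 and 36.6 CPM per kb in LNCaP. Over EHF, ELF3 and ELF5 the sum was 53.8 and 54.7 CPM per kb in LN-35, against 168 and 165 CPM per kb in LNCaP. ELF3 took 28.2% and 27.7% of it in LN-35, against 6.93% and 7.49% in LNCaP. GRHL2 kept between 87% and 88% of the grainyhead-like sum in all 4 libraries. CREB3L4 held 18% and 18.6% of the CREB3 family in LN-35, against 27.4% and 27.6% in LNCaP, and CREB3L2 50% and 51.1% in LN-35, against 27.3% and 25.8% in LNCaP.

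**Figure D3:**
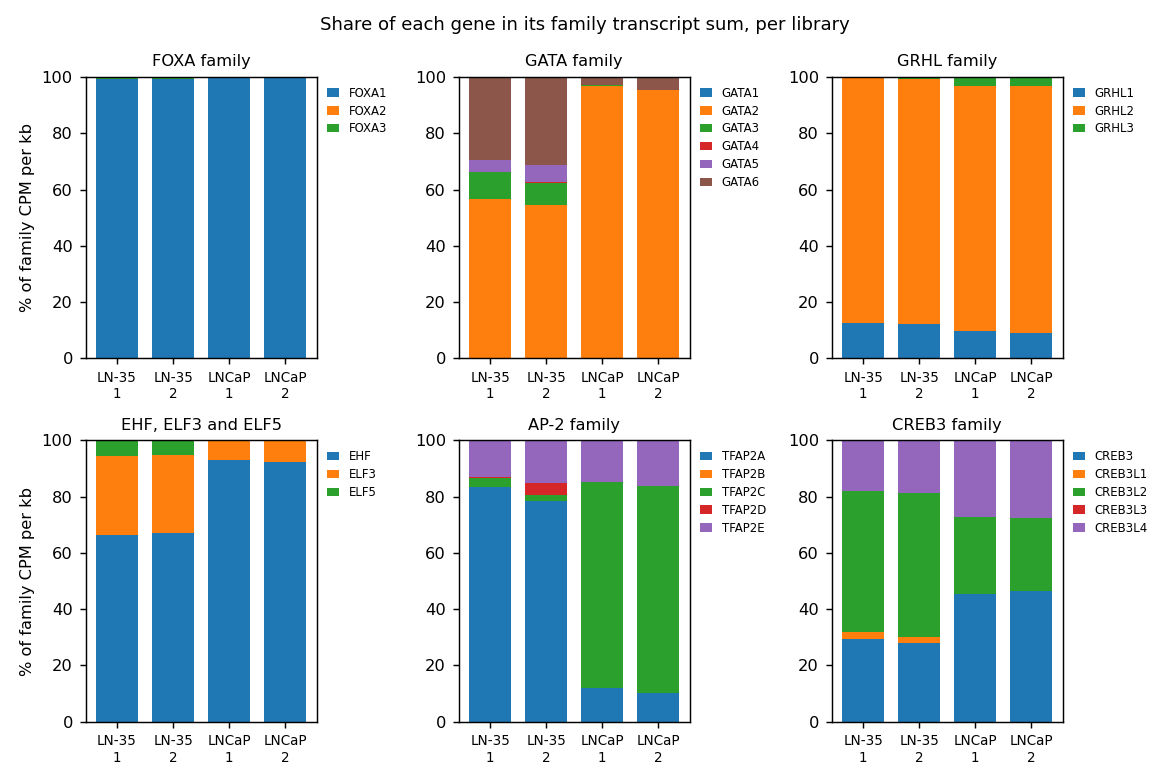
Share of each gene in the summed CPM per kb of its family, for each library (LN-35 replicates 1 and 2, then LNCaP replicates 1 and 2). TFAP2A fills most of the AP-2 bar in LN-35 and TFAP2C in LNCaP, GATA6 and GATA3 widen in LN-35, and the grainyhead-like bars look alike in all 4 libraries.

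Promoter windows were read for the factors because the family members that moved bind known short sequences. RefSeq windows (build GRCh38.p14) were found for 9 of the 10 factors, and the 250 bases before the most upstream start were searched on both strands. The motifs were AGATAA or AGATAG or TGATAA or TGATAG for GATA factors, TGTTTAC or TATTTAC for forkhead factors, AACNNGTT for grainyhead-like factors, CCGGAAGT or CAGGAAGT for ETS factors, GCCNNNGGC for AP-2 factors, and TGACGTCA or TGACGTGG for CREB3 factors. The windows of the 4 factors beyond 2-fold are shown, with that of SPDEF for its forkhead match, 5′ to 3′ on the strand of the gene and ending at the base before the start, with matches in capitals.
GATA2, chr3:128493202-128493451, minus strand: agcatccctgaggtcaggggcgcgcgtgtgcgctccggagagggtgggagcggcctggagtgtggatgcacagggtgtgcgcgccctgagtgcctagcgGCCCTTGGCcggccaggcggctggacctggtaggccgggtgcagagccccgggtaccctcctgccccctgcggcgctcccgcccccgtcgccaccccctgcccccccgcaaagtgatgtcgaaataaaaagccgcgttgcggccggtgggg
GATA3, chr10:8045083-8045332, plus strand: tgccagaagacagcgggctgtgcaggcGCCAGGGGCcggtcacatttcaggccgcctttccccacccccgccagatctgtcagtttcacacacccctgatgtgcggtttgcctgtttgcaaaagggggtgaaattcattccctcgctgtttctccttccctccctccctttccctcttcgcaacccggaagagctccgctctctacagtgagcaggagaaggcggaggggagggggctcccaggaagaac
EHF, chr11:34624007-34624256, plus strand: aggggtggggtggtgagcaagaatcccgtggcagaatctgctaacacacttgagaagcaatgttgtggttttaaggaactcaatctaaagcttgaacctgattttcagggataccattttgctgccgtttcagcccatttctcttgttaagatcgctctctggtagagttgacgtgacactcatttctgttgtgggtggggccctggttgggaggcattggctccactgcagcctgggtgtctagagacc
TFAP2A, chr6:10419660-10419909, minus strand: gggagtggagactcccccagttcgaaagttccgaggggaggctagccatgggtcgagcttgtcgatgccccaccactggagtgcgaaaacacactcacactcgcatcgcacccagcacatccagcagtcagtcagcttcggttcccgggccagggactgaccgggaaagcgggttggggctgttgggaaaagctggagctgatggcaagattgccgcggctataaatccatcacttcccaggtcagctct
SPDEF, chr6:34556330-34556579, minus strand: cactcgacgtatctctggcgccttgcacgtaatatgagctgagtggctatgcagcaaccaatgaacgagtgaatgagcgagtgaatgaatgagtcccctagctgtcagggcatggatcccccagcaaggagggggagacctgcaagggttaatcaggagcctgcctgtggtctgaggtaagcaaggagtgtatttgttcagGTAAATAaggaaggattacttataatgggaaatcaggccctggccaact

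The GATA2 window held the AP-2 motif as GCCCTTGGC at position -151 from the start and the GATA3 window as GCCAGGGGC at position -223. The AP-2 motif was in 19.8% of 35116 windows of all genes. SPDEF held a forkhead motif at position -49, printed as GTAAATA since it reads TATTTAC on the other strand, and 5.27% of all windows held one. The other 6 windows, EHF and TFAP2A among them, held none of the motifs searched. Shares over all windows were 22.3% for the GATA motifs, 5.89% for ETS, 3% for grainyhead and 2.24% for the CREB3 motifs. A match is a description of the sequence. The EHF window lies inside the longer gene of the GENCODE annotation, and gene counts do not tell which start was used.

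Other transcription factors of prostate epithelium did not share 1 direction. Of 8 tested, 4 were higher and 2 lower, 75% called beside the 71.8% background, with a median log2 fold change of 0.50. The Krüppel-like factors KLF5 (67.8 ± 0.897 CPM in LN-35 and 1.94 ± 0.405 CPM in LNCaP, SD, n = 2 each, edgeR adjusted p = 9.02e-19) and KLF4 (117 ± 3.26 CPM in LN-35 and 29.3 ± 4.47 CPM in LNCaP, SD, n = 2 each, edgeR adjusted p = 1.04e-14) were higher. SOX9, a factor of epithelial progenitors, had 67.2 and 71.5 CPM in LN-35, against 18.5 and 17.8 CPM in LNCaP (log2 fold change 1.93, SE 0.10, edgeR adjusted p = 4.57e-14). Lower was HOXB13, the homeobox factor of posterior prostate, with 97.3 and 95.6 CPM in LN-35 and 185 and 191 CPM in LNCaP (log2 fold change -0.96, SE 0.07, edgeR adjusted p = 2.29e-11). OVOL1, a zinc finger factor of epithelial differentiation, was rare and also lower, with 2.92 and 1.69 CPM in LN-35 and 6.35 and 5.66 CPM in LNCaP (log2 fold change -1.38, SE 0.32, edgeR adjusted p = 5.47e-04).

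Cofactors of the 10 factors were measured as a list of Groucho-type corepressors, AP-2 cofactors, a GATA partner and the proteases that cleave CREB3 proteins. Of 13 tested, 5 were higher and 5 lower, 76.9% called beside the 71.8% background, with a median of -0.05. Without LNCaP replicate 1, and likewise without LN-35 replicate 1, 3 were higher and 3 lower, and 3 were lower without LN-35 replicate 2. CITED2, a coactivator that AP-2 factors recruit, had 177 and 176 CPM in LN-35, against 45.7 and 46.9 CPM in LNCaP (log2 fold change 1.93, edgeR adjusted p = 1.78e-16). KCTD15, an inhibitor of AP-2 activity, was lower, at 18.9 and 19.6 CPM in LN-35 and 33.2 and 31.8 CPM in LNCaP (log2 fold change -0.76, edgeR adjusted p = 7.45e-06). Of the corepressors that FOXA factors can bind, TLE3 was lower (82.5 and 82.9 CPM in LN-35, against 172 and 174 CPM in LNCaP) and TLE4 higher, with 74 and 82 counts in LN-35 and 8 and 1 in LNCaP (log2 fold change 4.36, 3.62 without LNCaP replicate 2 and 6.29 without LNCaP replicate 1). TLE4 passed the filter on low counts only through LN-35. TLE2, outside the rule for named genes, was also higher (log2 fold change 0.49, edgeR adjusted p = 0.00347). Its change was 0.34 without LNCaP replicate 1 and 0.32 without LN-35 replicate 1. TLE1 did not pass (log2 fold change 0.21, edgeR adjusted p = 0.0606). The site-1 protease gene MBTPS1 was higher by 0.70 and the site-2 protease gene MBTPS2 fell by 0.39 on the log2 scale.

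Genes of epithelial junctions and splicing, among them known grainyhead-like and ETS targets, were mostly lower. Of 19 tested, 14 were lower and 4 higher, which is 94.7% called, beside the 71.8% background, with a median log2 fold change of -0.60. RAB25, an epithelial vesicle GTPase, had no counts in LN-35, against 833 and 849 in LNCaP, at least 463-fold lower against a floor of 3 counts over both LN-35 libraries. It passed the filter on low counts only through LNCaP, where it is high. OCLN, the tight junction protein occludin, had 27.9 and 26.8 CPM in LN-35, against 154 and 166 CPM in LNCaP (log2 fold change -2.55, edgeR adjusted p = 9.11e-18). PRSS8, the epithelial protease prostasin, had 18.7 and 15.4 CPM in LN-35, against 76 and 84.7 CPM in LNCaP (log2 fold change -2.24, edgeR adjusted p = 1.12e-14). CDH1, the gene of E-cadherin and named after its values were seen, was 1.66-fold lower, at 855 and 899 CPM in LN-35 and 1456 and 1450 CPM in LNCaP (edgeR adjusted p = 2.35e-09). The members that rose were CDH3, the gene of P-cadherin (74.4 and 82.3 CPM in LN-35, against 3.81 and 3.8 CPM in LNCaP), the splicing regulator ESRP1 (419 and 441 CPM in LN-35, against 231 and 208 CPM in LNCaP), the junction scaffold TJP3 (48.6 and 40.2 CPM in LN-35, against 23 and 18.2 CPM in LNCaP) and SPINT1, which lay outside the rule for named genes.

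Secretory genes, such as those that SPDEF drives in goblet cells, were sparse: 5 of 10 were tested. Of these 1 was higher and 2 lower, 60% called beside the 71.8% background. AGR2, a disulfide isomerase, had 35.7 and 30.8 CPM in LN-35, against 48 and 63.6 CPM in LNCaP (log2 fold change -0.74, edgeR adjusted p = 6.64e-05), and FCGBP 20 and 19.3 CPM in LN-35, against 56.2 and 46.7 CPM in LNCaP (log2 fold change -1.39, edgeR adjusted p = 2.07e-10). The higher gene, the mucin MUC5AC, had 25 and 33 counts in LN-35 and 24 and 8 in LNCaP (edgeR adjusted p = 0.0428). Its adjusted p was 0.0775 with the replicate block, 0.0554 with library totals alone, 0.13 with DESeq2, 0.339 without LNCaP replicate 2, 0.078 without LN-35 replicate 1 and 0.241 without LN-35 replicate 2, and its log2 fold change was 2.02 without LNCaP replicate 1, against 1.15 with all libraries.

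The repressors of the epithelial state, which oppose GRHL2, stood at low levels. Of 7, 5 were tested, of which 3 were higher and 2 lower, 100% called beside the 71.8% background. ZEB2 and SNAI3 passed the filter on low counts only through LN-35, and SNAI2 only through LNCaP, where each is high. TWIST1 had 12 and 9.5 CPM in LN-35, against 2.28 and 2.37 CPM in LNCaP (log2 fold change 2.20, edgeR adjusted p = 5.59e-08). ZEB2 had 10 and 23 counts in LN-35 and none in LNCaP, at least 13.3-fold higher. SNAI2 had none in LN-35, against 51 and 47 counts in LNCaP, at least 26.9-fold lower. SNAI1 was called as lower (13 and 4 counts in LN-35, 33 and 25 in LNCaP, log2 fold change -1.47, edgeR adjusted p = 0.0219) and SNAI3 as higher (26 and 18 counts in LN-35, 9 and 9 in LNCaP, edgeR adjusted p = 0.0133). Both rested on few counts. The adjusted p of SNAI1 was 0.106 with DESeq2, 0.324 without LN-35 replicate 2, 0.14 without LNCaP replicate 1 and 0.0672 without LNCaP replicate 2, and its change was -2.55 without LN-35 replicate 1. The adjusted p of SNAI3 was 0.0523 under the replicate block, 0.0714 with DESeq2, 0.209 without LN-35 replicate 1, 0.101 without LNCaP replicate 1 and 0.0684 without LNCaP replicate 2. With lower bounds in place of fitted values, the medians of the lists of repressors and junction genes were the same.

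**Figure D4:**
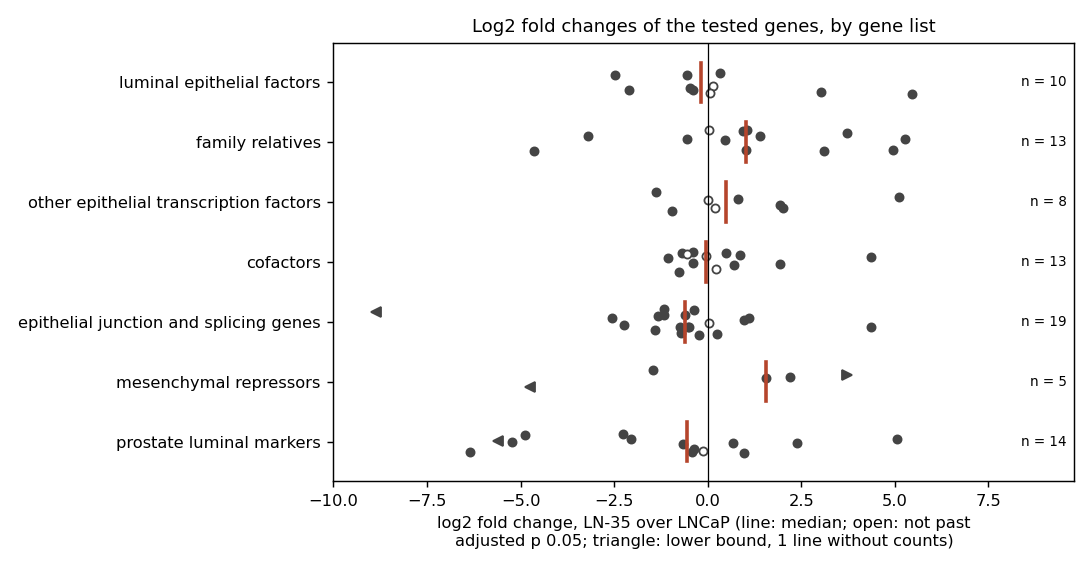
Log2 fold changes, LN-35 over LNCaP, of the tested genes of each list (1 point per gene, open where the test was not passed, a triangle where the value is a lower bound), with the median as a line. The epithelial junction and splicing genes lie mostly to the left of 0, with a median of -0.60, and the 10 factors lie on both sides, with a median of -0.16.

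The labelled cell type was checked against its markers. Of 14 tested prostate luminal markers 4 were higher and 9 lower, 92.9% called beside the 71.8% background, with a median of -0.55 and summed levels of 5928 and 5921 CPM in LN-35 and 5047 and 4900 CPM in LNCaP. Without FKBP5, left out after its value was seen, the sums were 4037 and 4035 CPM in LN-35 and 4989 and 4844 CPM in LNCaP. Of the luminal keratins KRT8 was higher, with 883 and 843 CPM in LN-35 and 422 and 459 CPM in LNCaP, and KRT18 was lower, with 293 and 297 CPM in LN-35 and 357 and 400 CPM in LNCaP. KRT19, a rare transcript in both lines that was named after its values were seen, was also lower, with 5 and 6 counts in LN-35 and 42 and 24 in LNCaP (log2 fold change -2.27, edgeR adjusted p = 9.82e-04). KRT19 and TRPM8 passed the filter on low counts only through LNCaP, where they are high. TRPM8, outside the rule for named genes, had no counts in LN-35 and 124 and 56 in LNCaP, at least 48.4-fold lower. Androgen-regulated markers split: KLK3 (6.33 and 5.96 CPM in LN-35, against 520 and 488 CPM in LNCaP), TMPRSS2 (12.4 and 11.3 CPM in LN-35, against 433 and 457 CPM in LNCaP) and KLK2 were lower. FKBP5 (1891 and 1886 CPM in LN-35, against 57 and 56.4 CPM in LNCaP) and PMEPA1 (436 and 452 CPM in LN-35, against 89.3 and 79.7 CPM in LNCaP) were higher. The basal markers KRT5 and TP63 had no counts in any library. Of the 4 tested basal genes 2 were higher, DST and NGFR, and 2 lower, ITGA6 and ITGB4, 100% called beside the 71.8% background. NGFR passed the filter on low counts only through LN-35, where it is high. Summed levels of the basal list were 131 and 150 CPM in LN-35 and 117 and 112 CPM in LNCaP.

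Markers of other cell states also differed between the lines, in both directions. Of 6 tested neuroendocrine markers, of 9 listed, 5 were higher, CHGB, SYP and CHGA among them, 83.3% called beside the 71.8% background. CHGA, CHGB and SCG2 passed the filter on low counts only through LN-35, where they are high. SCG2, outside the rule for named genes, had 59 and 67 counts in LN-35 and 6 and 1 in LNCaP. Summed levels of the neuroendocrine list were 275 and 258 CPM in LN-35 and 64.7 and 60.3 CPM in LNCaP. CHGB had 46.1 and 46.4 CPM in LN-35 and no counts in LNCaP, at least 458-fold higher. Of 7 tested genes that mark other, androgen-independent prostate cancer lines, of 9 listed, 6 were higher and 1 lower, 100% called beside the 71.8% background. Summed levels of that list were 241 and 251 CPM in LN-35 and 148 and 146 CPM in LNCaP. CD44 and KRT7 passed the filter on low counts only through LN-35, where they are high. KRT7, outside the rule for named genes, had 16 and 20 counts in LN-35 and 2 and 1 in LNCaP. CD44 had 969 and 937 counts in LN-35, against 1 and 2 in LNCaP, 773 times as many after scaling (counting interval 264 to 3749). LGALS1 had 606 and 721 in LN-35, against 12 and 3 in LNCaP, and ANXA1 262 and 320 in LN-35, against 12 and 9 in LNCaP. EGFR was lower. Of 4 tested fibroblast markers, of 9 listed, 3 were higher, DCN, LUM and COL3A1, and COL3A1 did not pass without LN-35 replicate 2 (adjusted p = 0.24) or LNCaP replicate 1 (0.0684). These 3 calls are 75%, beside the 71.8% background, and DCN, LUM and COL3A1 passed the filter on low counts only through LN-35. Summed levels of the fibroblast list were 47.3 and 45 CPM in LN-35 and 45.5 and 37.1 CPM in LNCaP. COL1A1 had 37.2 and 30.5 CPM in LN-35 and 44.4 and 35.6 CPM in LNCaP, with an edgeR adjusted p of 0.0796, against 0.0487 with the replicate block, 0.0091 without LNCaP replicate 2 and 0.0137 without LN-35 replicate 1. The defining leukocyte and endothelial markers were at or near 0: PTPRC had 5 and 1 counts in LN-35 and none in LNCaP, and PECAM1 0 and 1 in LN-35 and 2 and 0 in LNCaP. Of the 2 tested genes in each of those lists, LCP1 and VWF were lower, 50% called in each beside the 71.8% background. VWF passed the filter on low counts only through LNCaP, where it is high. Summed levels were 13.8 and 17.7 CPM in LN-35 and 145 and 154 CPM in LNCaP for leukocyte markers, and 1.75 and 1.61 CPM in LN-35 and 6.35 and 7.31 CPM in LNCaP for endothelial markers. The part of these markers in the changes of the 10 factors was not tested.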

How the data were processed

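RNA-seq was performed on 2 LN-35 and 2 LNCaP libraries, grouped by their labels. The authors deposited 1 table that holds the estimated count of each of 20332 genes in each library, without scaling. Per the submitters' processing notes, HISAT2 2.0.5 and the hg38 genome were used, with featureCounts 1.5.0-p3. Between 11.49% and 12.0% of the values of a library were not whole, which can arise where reads that match several genes are divided, so near-identical paralogs are uncertain. The counts of the 10 factors were whole. Estimated counts were rounded to whole numbers, and no use of strand is stated. Symbols were found for 20304 identifiers, coordinates are from GENCODE release 29 (19736 genes protein coding), and promoters are from RefSeq.

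Genes were kept by filterByExpr (minimum count 10), scaled by TMM and tested two-sided with edgeR 4.0.16 (glmQLFit with robust=TRUE, design ~ group, R 4.3.3), over all 13744 kept genes. A kept gene under this minimum in both libraries of 1 line passed only through the other line, where it is high. The biological coefficient of variation was 6.67%. A fold against a line without counts is a lower bound against 3 counts over its libraries (0.123 CPM in LN-35, 0.101 CPM in LNCaP), and with 1 to 3 counts the ratio has an exact 95% counting interval. Since reads carried no molecular identifier, these limits cover counting error only.

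The 10 factors and the lists of relatives, other epithelial factors, cofactors, junction and splicing genes, secretory genes, mesenchymal repressors and cell markers were chosen with earlier results of these data known. Some genes of these lists are not reported here. Named genes were all 10 factors, relatives with at least 5 CPM in either line, and in each other list up to 3 called genes per direction with the smallest adjusted p, with KLK3, KRT8, KRT18, KRT5, TP63, COL1A1, PTPRC and PECAM1 whatever their values. Alternatives were DESeq2 1.42.0 size factors, library totals alone, no filter, the DESeq2 Wald test, a replicate block and leaving out each library. The labels give repeat numbers under a batch tag, and the replicate block took same-numbered libraries as pairs. The numbers alone do not show that libraries of different lines were handled together. The deviations of same-numbered libraries from their line means correlated at 0.00839 across genes.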

Additional observations from a re-analysis of the deposited data

How the results depend on the processing

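The values of the 10 factors kept their direction and side of the threshold in 87 of 90 refits, and their calls held in 89, over DESeq2 size factors, library totals alone, no filter, the DESeq2 Wald test, the replicate block and each library left out. The exceptions were SPDEF, which passed without LNCaP replicate 2 (0.30), and GRHL1, whose sign turned with library totals (-0.02) and with 1 library left out (from -0.05 to 0.16). The replicate block gave 3 higher and 5 lower factors, the same counts as without it, and changed no call among the 10. Leaving out 1 library gave 3 to 4 higher and 5 lower. The median of all tested genes shifted by 0.02 with DESeq2 size factors and by -0.08 with library totals. For the other listed genes, 998 of 1070 values kept direction and side of the threshold, 48 lost the call, 9 gained it and 15 changed sign, none of them called. The values that changed sign were, with library totals, TFAP2E -0.05, XBP1 -0.06 and ESRP2 -0.05. With 1 library left out the ranges were TFAP2E from -0.18 to 0.22, OVOL2 from -0.04 to 0.40, XBP1 from -0.07 to 0.10, ZFPM1 from -0.26 to 0.14, ESRP2 from -0.0019 to 0.07, MUC5B from -0.04 to 0.69 and CD68 from -0.44 to 0.04. With 1 library left out, cofactors called as higher ranged from 3 to 6 and as lower from 3 to 5, secretory genes called as higher from 0 to 2, mesenchymal repressors called as lower from 1 to 2 and fibroblast markers called as lower from 0 to 1. DESeq2 called 3 cofactors and 1 mesenchymal repressor as lower and 0 secretory genes as higher. Library totals and the replicate block each called 0 secretory genes as higher and 1 fibroblast marker as lower. Without the filter 3 secretory genes and 1 leukocyte marker were called as higher and 1 fibroblast marker as lower. Beyond what these settings change by construction, the cause was not tested. Depth limits GATA3, whose LNCaP libraries held 2 and 0 counts.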

Other observations

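The genes beside the 10 factors were read after the data had been seen, as the nearest measured coding gene on each side and any that overlaps. Of 24 such genes 20 were tested and 18 called, 90%, beside 71.8% of all tested genes. Among the called genes, SSTR1 beside FOXA1 (23 and 20 counts in LN-35, 3 and 2 in LNCaP) passed the filter on low counts only through LN-35. NCALD beside GRHL2 (2 and 4 counts in LN-35, 19 and 24 in LNCaP) passed it only through LNCaP. Of the 14 called genes beside a called factor, 6 moved in the direction of that factor. These were TTC6 (FOXA1), RPN1 (GATA2), TAF3 (GATA3), NCALD (GRHL2), and JTB and ENSG00000285641 (CREB3L4). With DESeq2, TAF1B, ZNF706 and RNPEP did not pass (DESeq2 Wald adjusted p = 0.0533, 0.123 and 0.0569). The log2 fold change of ENSG00000285641 was -0.90, and -0.48 without LNCaP replicate 2. GCNT2, a branching enzyme for cell-surface sugars that lies 72564 bases from TFAP2A, went against it, at 0.694 ± 0.157 CPM in LN-35 and 31.1 ± 0.201 CPM in LNCaP (SD, n = 2 each, log2 fold change -5.46, edgeR adjusted p = 5.66e-16). Beside EHF, ELF5 rose while EHF fell. CRTC2, a coactivator of CREB factors that lies 8909 bases from CREB3L4, was higher (70.3 ± 3.45 CPM in LN-35 and 29.7 ± 1.03 CPM in LNCaP, SD, n = 2 each, log2 fold change 1.24, edgeR adjusted p = 4.54e-11) while CREB3L4 was lower.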
